A study of Homo sapiens with 12 samples.

Results

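The translation initiation factors were taken as every gene whose current symbol begins with EIF1 to EIF6, leaving out the EIF2AK kinases and pseudogenes, and measured by at least 1 probe annotated to a single gene. There were 48 such genes of 20783 genes with a single-gene probe in the series, namely 46 protein-coding genes and 2 long noncoding transcripts named after a neighbouring factor gene (EIF1B-AS1 and EIF3J-DT). The Affymetrix GeneChip HGU133plus2 (AFFX) held 47 of them in 120 probe sets, the Applied Biosystems Human Genome Survey array (ABI) held 46 in 54 probes, and 45 were on both. Signal was measured in A2780, an established human ovarian carcinoma line, after exposure to 3 µM of a cell cycle inhibitor for 6 h (treated) and in untreated A2780 cells (control). The inhibitor was not named in the labels, only attached cells were harvested, and 3 cultures per condition were pooled into 1 RNA sample that was divided into aliquots. Each platform had 3 treated and 3 control arrays, so every p-value below measures the spread between aliquots of the same pair of RNA pools and not the spread between cultures.

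Initiation is the step at which the small ribosomal subunit finds the start codon. The subunit carries eIF1, eIF1A, eIF3, eIF5 and the initiator tRNA held by eIF2. It is brought to the capped mRNA end by eIF4F, made up of the cap-binding protein eIF4E, the scaffold eIF4G and the helicase eIF4A. eIF2B recharges eIF2 with GTP, and eIF5B joins the large subunit. The pathway is regulated by phosphorylation of eIF2 and by proteins that bind eIF4E, and it is active in proliferating tumour cells.

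Values are log2 signal on both platforms, and log2(Fold Change) is treated minus control. A probe was called at a limma adjusted p below 0.05 with a change of at least 1.5-fold, and a gene with several probes was represented by the probe with the lowest t-test p, or in a second reading by its brightest probe. Array medians ran between 5.37 and 5.47 on AFFX (log2) and between 1.06 and 1.19 on ABI (deposited linear signal), and the lowest correlation between arrays of a group was 0.994 on AFFX and 0.969 on ABI. The median SD over members' probes was 0.0802 in treated and 0.0887 in control arrays on AFFX, and 0.122 in treated and 0.0954 in control arrays on ABI. Both platforms were scaled by the authors, so changes are relative. The median gene was 0.16 higher in treated arrays on AFFX and 0.09 higher on ABI by its lowest-p probe. The 9 hybridisation control probe sets of AFFX averaged 9.57, 9.59 and 9.06 in treated arrays, against 9.08, 8.91 and 8.82 in control arrays, a difference of 0.47 (exact permutation test, two-sided p = 0.2, where 0.1 is the smallest that 3 arrays against 3 allow). Of the epithelial markers, KRT8 and KRT18 were above the median probe on both platforms, while EPCAM and CDH1 were below it. KRT18 was called lower and MUC16 higher on ABI, and no other epithelial, leukocyte, fibroblast or endothelial marker was called on either platform. Of the fibroblast and endothelial markers 5 of 7 were above the median probe on AFFX and 4 of 7 on ABI, with COL3A1 at the 99.4th and 96.4th percentiles and CDH5 at the 18th and 3.04th.

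Of the factors measured on both platforms, 4 of 45 were called lower in treated cells on both: EIF1B, EIF5, EIF4ENIF1 and the noncoding EIF3J-DT. Among all 16186 shared genes 10.5% were called lower on both, so the members' 8.89% was near that background. None was called higher on both, against 0.42% of shared genes. On AFFX alone 6 of 47 members were lower and 4 were higher, where 14.2% of all genes were lower and 2.49% higher. On ABI 7 of 46 members were lower and 0 were higher, where 14.8% of all genes were lower and 6.31% higher. By the brightest probe, 5 AFFX members were lower (11.6% of all genes) and 1 higher (1.85%), and 5 ABI members were lower (14.1%) and 0 higher (5.81%). The same 4 members were lower on both platforms by their brightest probes (9.09% of shared genes), and again 0 were higher (0.34%). Over the protein-coding members the median log2(Fold Change) was 0.20 on AFFX and 0.18 on ABI. Most factors were therefore within 1.5-fold between treated and control cells, and a few named ones moved beyond it. In a bulk extract, fewer cells with a transcript and less RNA per cell cannot be told apart.

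**Figure D1:**
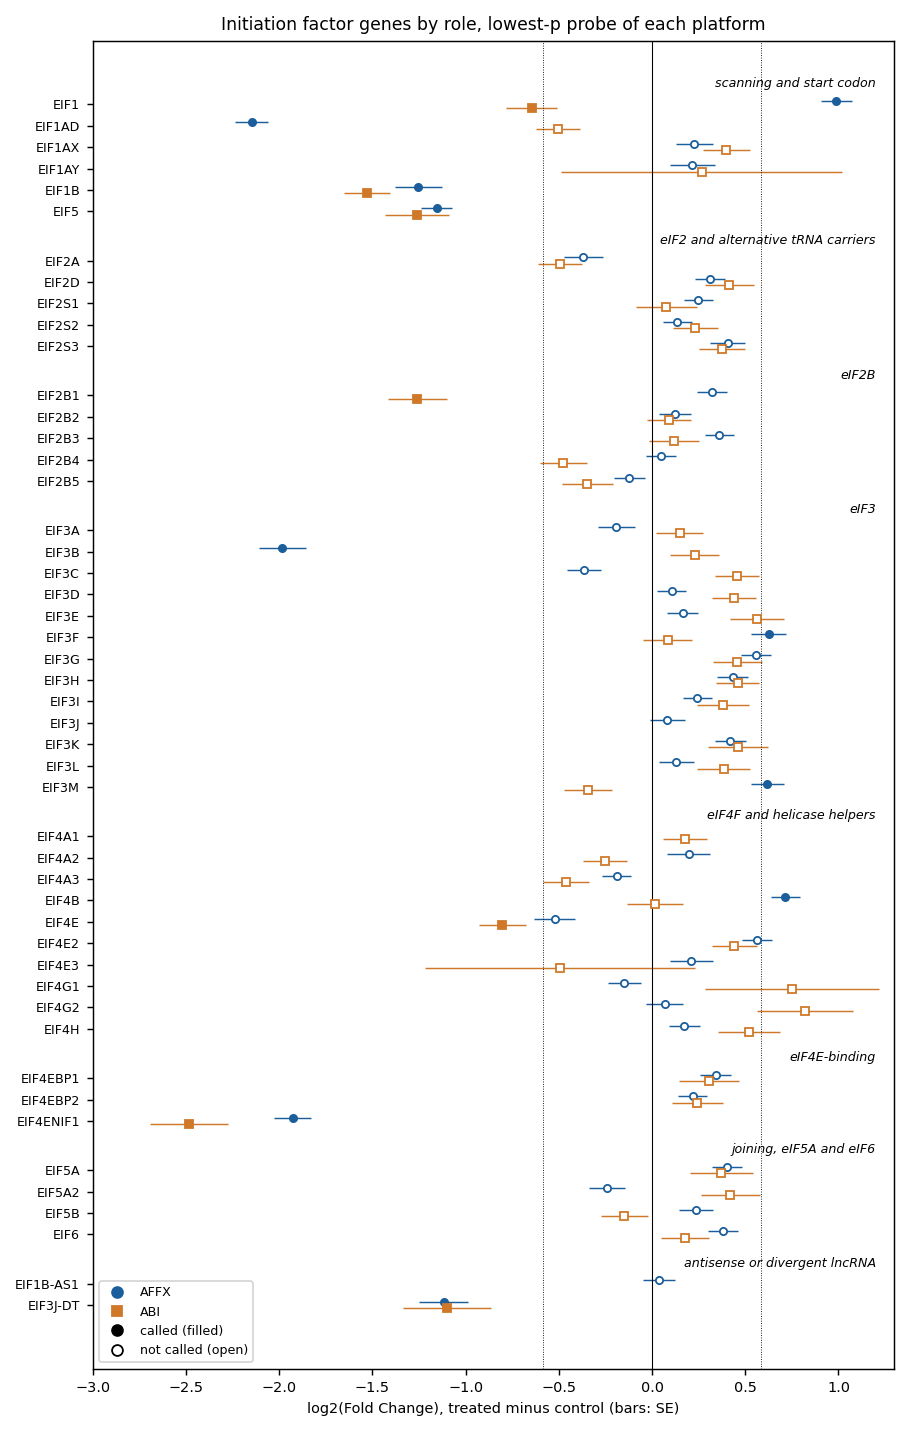
Change of each initiation factor gene, grouped by role, as log2(Fold Change) treated minus control (x axis) with its SE, from the lowest-p probe on AFFX (blue circles) and ABI (orange squares). Filled symbols were called and dotted lines mark 1.5-fold. EIF1B, EIF5, EIF4ENIF1 and EIF3J-DT lie to the left on both platforms, EIF1 lies on opposite sides, and most eIF3 genes lie right of 0 within 1.5-fold.

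The upstream sequences of the protein-coding factors that were lower on both platforms, of the cap-binding factor EIF4E and of EIF1 are shown because their signals are described array by array below. They are the 250 bases before the annotated start, from RefSeq (GRCh38.p14), read 5′ to 3′ along the gene. EIF1B is at chr3:40309457-40309706 (plus strand), EIF5 at chr14:103333987-103334236 (plus strand), EIF4ENIF1 at chr22:31489843-31490092 (minus strand), EIF4E at chr4:98929134-98929383 (minus strand) and EIF1 at chr17:41688635-41688884 (plus strand). For EIF5 the upstream start of 2 in the table is shown. Capitals mark the E-box CACGTG (bound by MYC family proteins), the letters CCAAT, the TATA-box letters TATAAA and the GC-box letters GGGCGG on either strand, where overlapping matches share letters.
EIF1B: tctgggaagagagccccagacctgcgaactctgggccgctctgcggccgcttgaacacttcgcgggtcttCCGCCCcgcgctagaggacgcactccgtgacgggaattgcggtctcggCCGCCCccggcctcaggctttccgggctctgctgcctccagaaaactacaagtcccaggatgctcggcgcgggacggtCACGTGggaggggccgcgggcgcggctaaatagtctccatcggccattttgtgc
EIF5: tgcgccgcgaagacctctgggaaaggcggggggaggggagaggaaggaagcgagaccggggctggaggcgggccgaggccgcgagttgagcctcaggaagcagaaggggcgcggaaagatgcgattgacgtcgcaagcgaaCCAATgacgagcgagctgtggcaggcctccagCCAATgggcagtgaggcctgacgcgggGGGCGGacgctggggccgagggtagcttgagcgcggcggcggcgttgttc
EIF4ENIF1: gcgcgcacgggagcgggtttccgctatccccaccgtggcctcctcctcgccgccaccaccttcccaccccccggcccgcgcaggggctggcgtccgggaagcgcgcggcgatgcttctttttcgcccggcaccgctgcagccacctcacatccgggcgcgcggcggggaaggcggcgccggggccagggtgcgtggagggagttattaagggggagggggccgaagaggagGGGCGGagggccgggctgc
EIF4E: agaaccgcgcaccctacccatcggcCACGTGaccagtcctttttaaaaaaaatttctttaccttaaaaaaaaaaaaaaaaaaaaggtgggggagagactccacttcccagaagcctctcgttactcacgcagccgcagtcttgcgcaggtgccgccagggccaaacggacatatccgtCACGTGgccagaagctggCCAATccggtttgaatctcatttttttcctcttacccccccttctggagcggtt
EIF1: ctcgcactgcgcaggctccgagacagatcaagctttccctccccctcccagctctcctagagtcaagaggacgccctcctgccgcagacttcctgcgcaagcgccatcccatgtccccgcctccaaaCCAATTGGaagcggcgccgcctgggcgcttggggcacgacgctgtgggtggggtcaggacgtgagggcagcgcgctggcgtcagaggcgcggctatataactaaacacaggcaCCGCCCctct
Of the members, 41 matched a gene in the promoter table. CACGTG was present before 10 of these 41 genes (24.4%), against 7.73% of the 27305 genes in the table. The 10 were EIF1B, EIF2B3, EIF3F, EIF3K, EIF4A3, EIF4B, EIF4E, EIF4G1, EIF4H and EIF5A2, and of these only EIF1B was called lower on both platforms by its lowest-p probe. EIF4E held 2 copies and EIF1B 1 copy. CCAAT preceded 17 members (41.5%), against 37% of all genes, and EIF1, EIF5 and EIF4E were among them. For EIF5 this was at the start shown, and the window of its other start held 0 copies. GGGCGG preceded 31 members (75.6%), against 46.2% of all genes, and TATAAA preceded 1 member, EIF4A2 (2.44%), against 13% of all genes. A gene with several annotated starts was counted if any of its windows held the letters. The table also holds noncoding genes, so all genes are not a matched set for the mostly protein-coding members. These are letter matches and say nothing of which factor binds.

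Among the factors that scan for the start codon, EIF1B and EIF5 were lower in treated cells on both platforms. EIF1B encodes a close paralogue of eIF1, the factor that keeps the scanning subunit open until a start codon is met. On AFFX EIF1B had 8.73, 8.91 and 8.43 in treated arrays, against 10.09, 9.93 and 9.81 in control arrays. On ABI EIF1B had 4.82, 4.82 and 5.02 in treated arrays, against 6.44, 6.37 and 6.43 in control arrays. All treated arrays were below all control arrays, with a log2(Fold Change) of -1.25 ± 0.125 (SE, limma adjusted p = 1.94e-05) on AFFX and -1.53 ± 0.123 (SE, limma adjusted p = 0.00147) on ABI. A second EIF1B probe set was dim and had means of 3.60 in treated and 3.63 in control arrays. The antisense transcript EIF1B-AS1, measured on AFFX by 3 probe sets, was not called and its lowest-p set changed by 0.04.

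EIF5 encodes the factor that prompts eIF2 to hydrolyse its GTP at the start codon. On AFFX its lowest-p probe set had 9.17, 9.13 and 9.07 in treated arrays, against 10.36, 10.20 and 10.28 in control arrays. On ABI EIF5 had 3.71, 3.29 and 3.26 in treated arrays, against 4.77, 4.72 and 4.55 in control arrays. The groups did not overlap on either platform, and the log2(Fold Change) was -1.15 ± 0.083 (SE, limma adjusted p = 1.41e-06) on AFFX and -1.26 ± 0.173 (SE, limma adjusted p = 0.00762) on ABI. Of 5 single-gene AFFX probe sets 4 were called lower, with changes between -1.26 and -1.001, and the remaining set, which was the dimmest, changed by -0.08. EIF5 was the 1 member of 31 with several AFFX probe sets for which most of the sets were called in 1 direction, against 6.38% of all genes with several sets.

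EIF1 itself went in opposite directions according to the probe. Its lowest-p AFFX probe set had 7.98, 7.87 and 7.89 in treated arrays, against 6.95, 6.84 and 6.98 in control arrays, and was called higher by 0.99 ± 0.0828 (SE, limma adjusted p = 4.71e-06). On ABI EIF1 had 7.19, 6.89 and 6.94 in treated arrays, against 7.67, 7.70 and 7.60 in control arrays, and was called lower by -0.65 ± 0.136 (SE, limma adjusted p = 0.0273). The other 6 AFFX sets ranged in change from -0.60 to -0.05, with 1 of them called lower. That set had 11.36, 11.45 and 11.45 in treated arrays, against 12.06, 11.89 and 12.11 in control arrays. The sets at -0.55 and -0.54 passed the p limit but not the fold limit, with all treated arrays below all control arrays. The brightest set had 12.73, 12.81 and 12.66 in treated arrays, against 12.92, 12.79 and 12.79 in control arrays, and its groups overlapped. The ABI call of EIF1 was lost when any 1 of 5 of the 6 arrays was left out (changes between -0.74 and -0.59 over all 6 omissions).

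EIF1AX, which encodes eIF1A, was not called on either platform, with changes of 0.23 on AFFX and 0.40 on ABI. Its 4 AFFX probe sets had treated means between 9.27 and 10.77 and control means between 9.10 and 10.51, and EIF1AY was also not called. EIF1AD, named for its eIF1A-like domain, had 6.36, 6.33 and 6.29 in treated arrays and 8.61, 8.45 and 8.37 in control arrays on 1 AFFX probe set, a change of -2.15 ± 0.0884 (SE, limma adjusted p = 3.3e-08). Its other AFFX set had 6.88, 6.96 and 7.002 in treated arrays, against 7.004, 6.71 and 6.88 in control arrays, and was not called. On ABI EIF1AD had 2.39, 2.31 and 2.27 in treated arrays, against 2.86, 2.89 and 2.73 in control arrays, and at -0.50 (limma adjusted p = 0.037) it passed the p limit but not the fold limit.

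**Figure D2:**
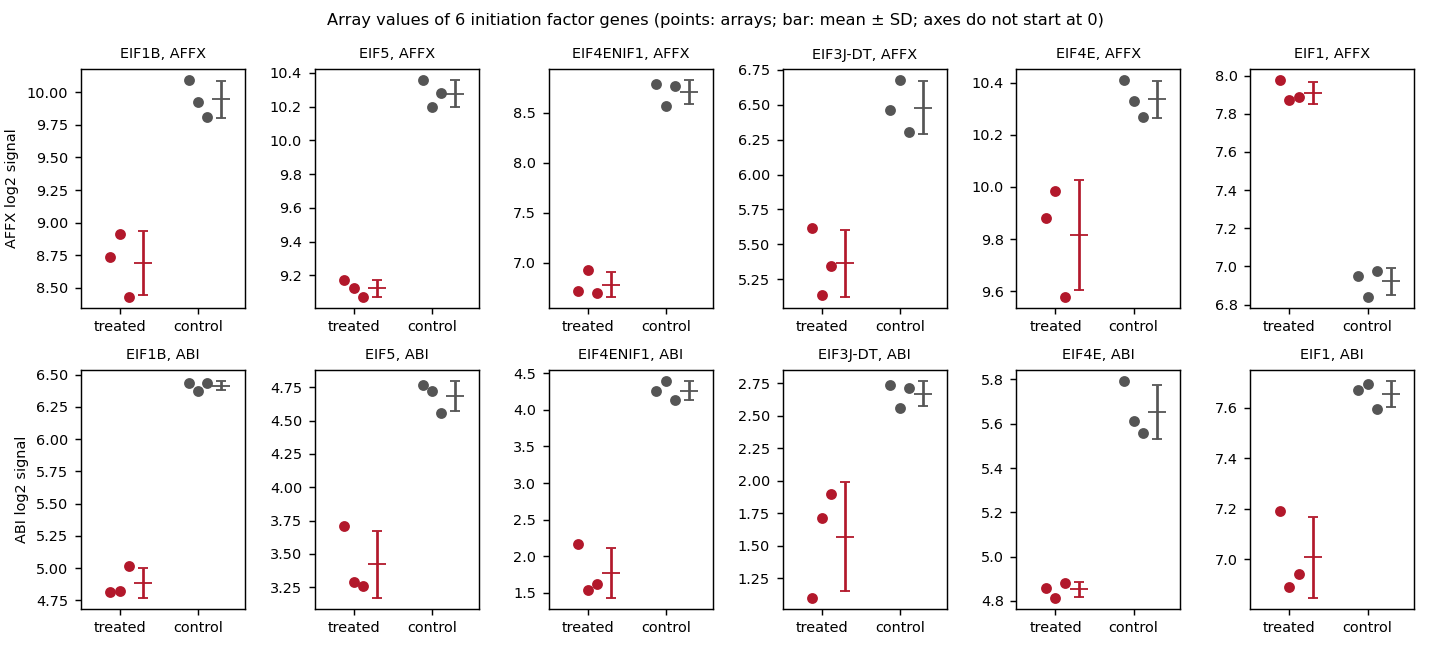
Log2 signal of 6 factors on AFFX (upper row) and ABI (lower row) from the lowest-p probe, with treated arrays in red left of control arrays in grey and bars for the mean ± SD of 3 arrays. Treated arrays lie below control arrays in every panel except EIF1 on AFFX, where the treated arrays are at 7.87 to 7.98 and the control arrays at 6.84 to 6.98. The y axes differ between panels and do not start at 0.

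The proteins that bind eIF4E did not move together. EIF4ENIF1, also known as 4E-T, binds eIF4E, carries it into the nucleus and takes part in mRNA storage and decay. On AFFX EIF4ENIF1 had 6.72, 6.92 and 6.70 in treated arrays, against 8.79, 8.57 and 8.76 in control arrays. On ABI EIF4ENIF1 had 2.17, 1.54 and 1.62 in treated arrays, against 4.25, 4.39 and 4.14 in control arrays. The groups were apart on both, by -1.93 ± 0.0974 (SE, limma adjusted p = 1.07e-07, 3.81-fold lower) on AFFX and by -2.48 ± 0.208 (SE, limma adjusted p = 0.00162, 5.59-fold lower) on ABI. A second, dim AFFX set had means of 3.94 in treated and 3.63 in control arrays and was not called. EIF4EBP1 and EIF4EBP2 encode the 4E-BPs, which hold eIF4E away from eIF4G until mTOR phosphorylates them, and neither was called. EIF4EBP1 had a mean of 11.32 in treated and 10.98 in control arrays on AFFX, and of 5.59 in treated and 5.28 in control arrays on ABI. EIF4EBP2 changed by 0.22 on AFFX and 0.24 on ABI.

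EIF4E, the cap-binding factor, was lower in treated cells on part of its probes. On ABI 1 EIF4E probe had 4.86, 4.81 and 4.88 in treated arrays, against 5.79, 5.61 and 5.56 in control arrays, a change of -0.80 ± 0.125 (SE, limma adjusted p = 0.0114). The other ABI probe had 5.30, 5.33 and 5.18 in treated arrays, against 6.00, 5.74 and 5.55 in control arrays, and at -0.49 it was not called. On AFFX the lowest-p and brightest set had 9.88, 9.99 and 9.58 in treated arrays, against 10.41, 10.33 and 10.27 in control arrays. Its groups did not overlap, but the change of -0.52 (limma adjusted p = 0.00382) was under 1.5-fold. Another 2 AFFX sets were called lower, at -0.63 and -0.75, and the dimmest 2 of the 5 changed by 0.13 and -0.01.

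Its homologues gave other values. EIF4E2 encodes 4EHP, a cap-binding protein that does not bind eIF4G. The brightest AFFX set of EIF4E2 had 10.81, 10.82 and 10.74 in treated arrays, against 10.26, 10.13 and 10.17 in control arrays, and was called higher by 0.60 ± 0.0815 (SE, limma adjusted p = 0.000211). A dimmer EIF4E2 set had 5.97, 5.60 and 5.60 in treated arrays, against 6.50, 6.55 and 6.38 in control arrays, and was called lower by -0.76. On ABI EIF4E2 had 7.16, 7.16 and 7.26 in treated arrays, against 6.84, 6.66 and 6.75 in control arrays, and its change of 0.44 was not called (limma adjusted p = 0.0543). EIF4E3 was not called, and its ABI values scattered between -2.74 and -1.29 in treated and between -2.18 and 0.08 in control arrays.

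The other parts of eIF4F and its helpers were mostly within 1.5-fold. The scaffold genes EIF4G1 and EIF4G2 were not called, and their brightest AFFX sets had means of 10.93 and 11.87 in treated and 10.87 and 11.87 in control arrays. Their lowest-p ABI probes were past 1.5-fold without a call, EIF4G1 at 0.75 ± 0.465 (SE, limma adjusted p = 0.317) and EIF4G2 at 0.82 ± 0.257 (SE, limma adjusted p = 0.0774). That EIF4G2 probe had 1.44, 1.97 and 1.12 in treated arrays, against 0.74, 0.87 and 0.46 in control arrays, without overlap, while the brighter ABI probes changed by 0.05 for EIF4G1 and 0.10 for EIF4G2. The helicase EIF4A1 had a mean of 8.75 in treated and 8.57 in control arrays on its ABI probe. EIF4A2 changed by -0.25 on ABI and by 0.20 on its single-gene AFFX set, which was at the low end of the scale, and EIF4A3, whose protein belongs to the exon junction complex, changed by -0.19 on AFFX and -0.46 on ABI, with none called. EIF4B and EIF4H stimulate eIF4A. One of 3 EIF4B sets on AFFX had 7.22, 7.25 and 7.14 in treated arrays, against 6.47, 6.49 and 6.50 in control arrays, and was called higher by 0.72 ± 0.0794 (SE, limma adjusted p = 4.55e-05). The brightest EIF4B set changed by -0.05. The ABI probe of EIF4B had 5.60, 5.38 and 5.32 in treated arrays, against 5.59, 5.38 and 5.29 in control arrays, and its groups overlapped. EIF4H changed by 0.17 on AFFX and 0.52 on ABI and was not called.

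eIF2 and eIF2B were not called by the brightest probe on either platform. The 3 subunit genes of eIF2 (EIF2S1, EIF2S2 and EIF2S3) had changes between 0.14 and 0.41 on AFFX, against 0.08 to 0.37 on ABI, by their lowest-p probes. EIF2A and EIF2D encode other carriers of initiator tRNA. EIF2A passed the p limit on both platforms without reaching the fold limit, with means of 9.55 in treated and 9.92 in control arrays on AFFX, and of 6.08 in treated and 6.58 in control arrays on ABI. EIF2D changed by 0.31 on AFFX (limma adjusted p = 0.0117) and 0.42 on ABI (limma adjusted p = 0.0782). EIF2B1 encodes the alpha subunit of eIF2B. It was called lower on ABI by the dimmer of 2 probes, with 2.54, 2.74 and 2.96 in treated arrays, against 4.02, 3.90 and 4.11 in control arrays, a change of -1.26 ± 0.158 (SE, limma adjusted p = 0.00578). The brighter ABI probe of EIF2B1 had 7.31, 7.18 and 7.18 in treated arrays, against 6.92, 6.91 and 6.69 in control arrays, and so lay the other way. The AFFX set had 10.08, 10.06 and 10.00 in treated arrays, against 9.81, 9.66 and 9.71 in control arrays, a change of 0.32. The remaining eIF2B genes (EIF2B2 to EIF2B5) had AFFX changes between -0.12 and 0.36 and ABI changes between -0.48 and 0.12, and none was called.

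The genes of eIF3, the large complex that bridges the ribosome and eIF4G, lay mostly above 0 and below 1.5-fold. By the brightest probe 11 of 13 on AFFX and 11 of 12 on ABI had a positive change, where 67.7% of all AFFX genes and 54.7% of all ABI genes were positive, and none was called. The eIF3 median was 0.13 on AFFX and 0.38 on ABI, against 0.12 and 0.08 over all genes. By the lowest-p probe the eIF3 median was 0.16 on AFFX and 0.41 on ABI, against 0.16 and 0.09 over all genes. Centring the arrays on the ribosomal protein genes, which shifts all genes alike, put the eIF3 median at -0.13 on AFFX and -0.22 on ABI. The median over all genes was then -0.13 and -0.53, so the sign is set by the scaling. Quantile normalization of ABI does not shift all genes alike. It put EIF3B at -0.16 and EIF3M at -0.73, against 0.23 and -0.34 as deposited, but EIF3F at 0.34 against 0.08. The median of all ABI genes was then 0.05, so the distance of these named eIF3 genes from the others on ABI also depended on the normalization. Without the fold limit, 14 members passed on AFFX as higher by their brightest probe and 8 as lower, where 26.3% of all genes were higher and 18.4% lower. On ABI the same reading gave 2 members higher and 7 lower, where 7.83% of all genes were higher and 15.1% lower. EIF3H was higher without the fold limit on both platforms, with 12.11, 12.11 and 12.02 in treated arrays and 11.67, 11.55 and 11.71 in control arrays on AFFX, and a change of 0.43 there and 0.46 on ABI.

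Single eIF3 genes were called on AFFX alone, by probe sets dimmer than the brightest set of the same gene. EIF3B encodes a scaffold subunit, and 1 of its 6 sets had 4.71, 4.98 and 5.16 in treated arrays, against 7.11, 6.90 and 6.78 in control arrays, a change of -1.98 ± 0.125 (SE, limma adjusted p = 5.2e-07). The 5 other EIF3B sets changed by -0.01 to 0.54, the brightest by 0.02. The sets at 0.54 and 0.27 passed the p limit as higher but not the fold limit (limma adjusted p = 0.00447 and 0.0291). On ABI EIF3B had 8.07, 7.86 and 7.86 in treated arrays, against 7.77, 7.75 and 7.59 in control arrays, and was not called. EIF3F had 5.20, 5.24 and 5.12 in treated arrays, against 4.67, 4.61 and 4.40 in control arrays, on its called set (0.62 ± 0.0934 SE, limma adjusted p = 0.000436). The brightest EIF3F set had means of 12.19 in treated and 11.94 in control arrays, and on ABI EIF3F had 3.38, 3.15 and 3.21 in treated arrays, against 3.26, 3.12 and 3.10 in control arrays, which overlapped. EIF3M had 4.47, 4.48 and 4.38 in treated arrays, against 3.73, 3.94 and 3.80 in control arrays, on a set called higher by 0.62 (limma adjusted p = 0.000282). Another EIF3M set had 3.79, 3.47 and 3.80 in treated arrays, against 4.23, 4.77 and 4.50 in control arrays, and was called lower by -0.81. The brightest EIF3M set overlapped between groups (-0.12), and on ABI EIF3M had 7.63, 7.50 and 7.77 in treated arrays, against 8.02, 7.94 and 7.97 in control arrays, without a call. Median centring of the arrays ended the AFFX calls of EIF3F and EIF3M (0.57 and 0.56), as did leaving out control array 3 for EIF3F (0.55) and control array 1 for EIF3M (0.57).

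EIF3J-DT is a noncoding transcript read away from the start of EIF3J, which encodes a loosely bound eIF3 subunit. EIF3J-DT had 5.62, 5.13 and 5.34 in treated arrays, against 6.46, 6.68 and 6.30 in control arrays on AFFX (-1.12 ± 0.132 SE, limma adjusted p = 7.4e-05). On ABI it had 1.098, 1.71 and 1.90 in treated arrays, against 2.74, 2.56 and 2.71 in control arrays (-1.10 ± 0.235 SE, limma adjusted p = 0.0281). The groups did not overlap on either platform, but the ABI call was lost when treated array 2 or any 1 of the control arrays was left out (changes between -1.26 and -0.86 over all 6 omissions), and likewise after quantile normalization of the ABI arrays (-0.86, limma adjusted p = 0.0614) and under the methods' t-test (adjusted p = 0.052). EIF3J, measured on AFFX only, changed by 0.08 on its brighter set and by -0.06 on the other.

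The factors of subunit joining and the late steps stayed within 1.5-fold. EIF5B changed by 0.23 on AFFX and -0.15 on ABI. EIF5A, the hypusine-bearing factor that helps elongation and termination, changed by 0.40 on AFFX (limma adjusted p = 0.00263) and 0.37 on ABI (limma adjusted p = 0.184). Its 3 AFFX sets had treated means of 9.84 to 12.25 and control means of 9.36 to 11.997. The paralogue EIF5A2 changed by -0.24 on AFFX and 0.42 on ABI and was not called. EIF6, which keeps the large subunit apart from the small one, had a mean of 10.54 in treated and 10.16 in control arrays on AFFX and changed by 0.18 on ABI.

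Over the AFFX probe sets of members, 14 of 120 were called lower, against 10.4% of the 41091 single-gene sets, and 5 were called higher, against 1.71%. Of 31 members with several AFFX sets, 11 had at least 1 set called, against 24.7% of the 10523 genes with several sets. In 3 of the 31 (EIF1, EIF3M and EIF4E2) sets were called in both directions, against 0.855% of those genes. In 6 (EIF1, EIF3B, EIF3F, EIF3M, EIF4B and EIF4E) a set was called but the brightest was not, against 8.75%. These shares are a description, with no test.

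**Figure D3:**
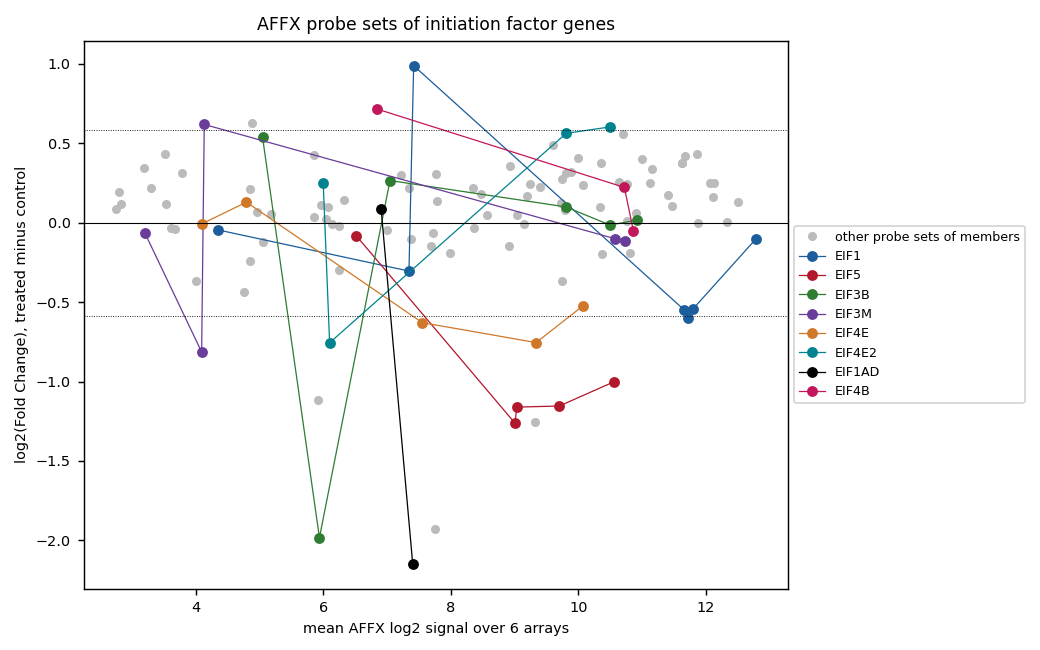
Each of the 120 AFFX probe sets of initiation factor genes by its log2(Fold Change), treated minus control (y axis), against their mean log2 signal over 6 arrays (x axis), where lines join the sets of 1 gene and dotted lines mark 1.5-fold. The sets of EIF5 lie low together apart from the dimmest, while 1 set of EIF3B and 1 of EIF1AD lie near -2. The other sets of EIF3B lie between -0.01 and 0.54, and the other set of EIF1AD lies at 0.08.

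Whether a factor changed differently on the platforms was tested by an interaction of platform and treatment. By the lowest-p probe 10 of 45 members differed at an adjusted p below 0.05, against 15.1% of the 16186 shared genes, and by the brightest probe 4 of 45 (EIF1, EIF1AD, EIF2B4 and EIF3C), against 11.7%. For EIF1B the difference, AFFX minus ABI, was 0.28 ± 0.183 (SE, limma adjusted p = 0.367), for EIF5 0.11 ± 0.176 (SE, limma adjusted p = 0.746), for EIF4ENIF1 0.55 ± 0.229 (SE, limma adjusted p = 0.141) and for EIF3J-DT -0.02 ± 0.288 (SE, limma adjusted p = 0.978).

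**Figure D4:**
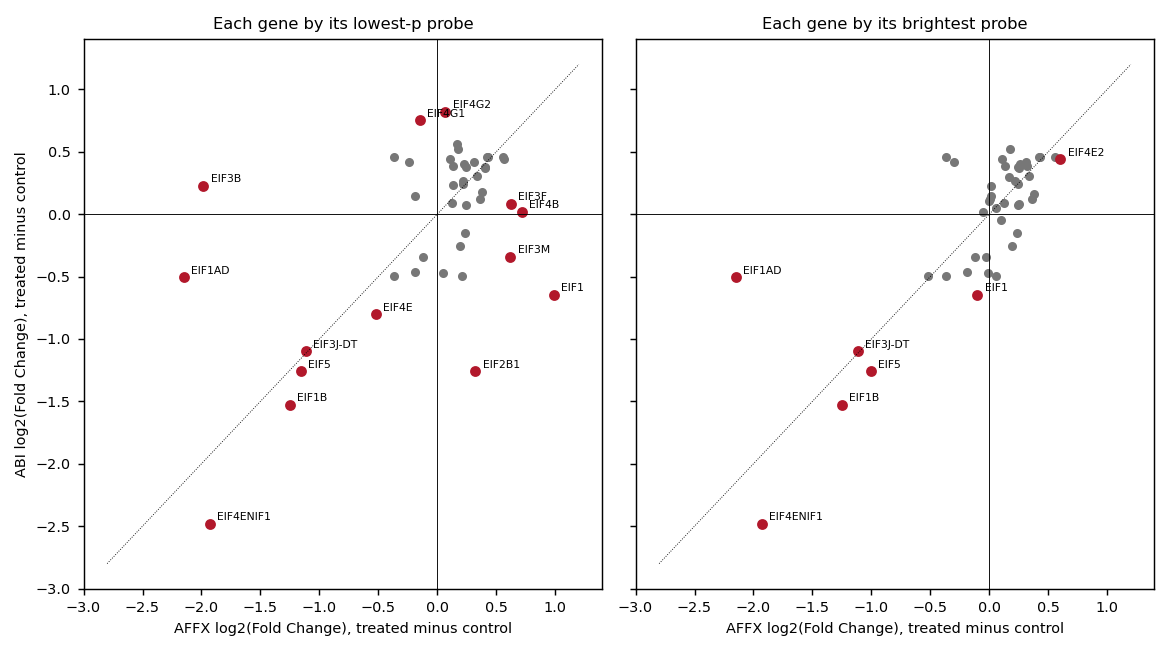
Log2(Fold Change), treated minus control, on AFFX (x axis) against ABI (y axis) for the 45 factors on both platforms, by the lowest-p probe (left) and the brightest probe (right), with the dotted line marking equal change. Red, named points are past 1.5-fold on at least 1 platform. EIF1B, EIF5 and EIF3J-DT lie near the line in both panels, and EIF4ENIF1 lies below it (-1.93 on AFFX, -2.48 on ABI). EIF3B, EIF2B1, EIF3M, EIF4B, EIF3F, EIF4E, EIF4G1 and EIF4G2 are named on the left only, and EIF4E2 on the right only.

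Genes that regulate the factors were also called, and their counts are to be read against 14.2% of all genes lower and 2.49% higher on AFFX, and 14.8% lower and 6.31% higher on ABI. Of 9 genes for eIF2 kinases and the phosphatase that reverses them, 3 were called lower on AFFX and 2 of 8 on ABI, with 0 higher. PPP1R15B, the constitutive targeting subunit of that phosphatase, had a mean of 7.36 in treated and 10.50 in control arrays on AFFX, and of -1.46 in treated and 2.21 in control arrays on ABI. EIF2AK3, the kinase PERK of the endoplasmic reticulum, changed by -2.50 on AFFX and -1.60 on ABI, and PPP1R15A was lower on AFFX (-0.71) by 1 set, while its brightest set (-0.58) and its ABI probe (0.39) were not called. Of the cap and mTOR regulators, RPTOR (-0.71) and PAIP1 (-1.26) were lower and LARP1 (0.66) higher among 13 on AFFX. On ABI PAIP1 (-0.63) was lower and LARP1 (0.62) and PABPC1 (0.80), the poly(A)-binding protein, were higher among 14. The brightest AFFX sets of PAIP1 (-0.42) and LARP1 (-0.02), the brightest ABI probe of PAIP1 (-0.38) and the ABI probe of RPTOR (0.04) were not called. By the lowest-p probe none of 10 helper helicase and recycling genes was called on either platform. The brightest AFFX set of DDX3X was called lower (-0.78), while its lowest-p set (-0.55) and its ABI probe (-0.26) were not called. None of the elongation factors and the kinase gene EEF2K, 6 genes on AFFX and 7 on ABI, was called. The termination list held ETF1, GSPT1, GSPT2 and HEMK1, of which HEMK1 is not itself a release factor. Of these 4 genes GSPT2 was lower on both platforms (-2.66 on AFFX and -1.20 on ABI). GSPT1 was lower on AFFX (-1.70) by a dim set whose brightest counterpart changed by 0.12, with -0.01 on ABI. By the lowest-p probe the list medians on AFFX and ABI were 0.16 and 0.13 for the eIF2 kinases and phosphatase. They were 0.10 and 0.02 for the cap and mTOR regulators and 0.13 and -0.09 for the helicases. For the elongation list they were 0.35 and 0.49, and for the termination list -0.96 and -0.22. The median gene was at 0.16 and 0.09. On AFFX the elongation and termination medians depended on the probe choice. The lowest-p sets of EEF1A1, EEF2K and GSPT1 changed by 0.53, 0.39 and -1.70, but their brightest sets by 0.01, -0.09 and 0.12. The remaining genes of both lists kept nearly the same value.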

How the data were processed

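RNA of A2780 cells, treated or untreated, was measured on AFFX and ABI arrays. The authors deposited AFFX values as log2 signal, computed by RMA (also named in the submitters' processing notes) with quantile normalization, and ABI values as linear intensity after global median normalization across arrays. The ABI intensities were turned to log2 here with no offset. The processed value tables were used without scanner files, so background correction and detection calls were not analysed here.

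Genes were named from the platform annotations through RefSeq (GRCh38.p14), keeping probes with 1 gene: 41091 AFFX and 21089 ABI probes, with 1801 and 563 naming several genes and 11721 and 11444 naming none. Promoters were likewise taken from RefSeq. Each platform was fitted apart and unpaired with limma 3.58.1 in R 4.3.3. The p-values were adjusted by Benjamini-Hochberg over 54613 AFFX and 33096 ABI probes, control probes left out. Representative probes were those with the lowest equal-variance t-test p, as in the methods. The scripts were tested on simulated data.

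The members and gene lists were chosen with earlier results of these data known. Values in every array are given for members called on both platforms, for up to 5 with the largest change called on 1 platform only, and for members called in opposite directions. Their paralogues and the EIF1A, EIF4A, EIF4G, EIF4EBP and EIF5A groups are given likewise or by group means, ranges or changes. The EIF3H values and the probe-level values beyond these were added after their values were seen. Alternatives were the replicate block, the centring or normalization, the dim filter, an offset, the probe choice, the fold limit, the methods' t-test and leaving out each array. The gene markers were KRT8, KRT18, KRT19, EPCAM, CDH1, PAX8, WT1 and MUC16 (3 of 8 measured above the median probe on AFFX, 3 of 7 on ABI), leukocyte genes (1 of 5 and 3 of 6) and fibroblast or endothelial genes (5 of 7 and 4 of 7).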

Additional observations from a re-analysis of the deposited data

Results flagged for a closer look

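The change of 10 factors differed between the platforms by the interaction test over the lowest-p probes, and the values below are log2(Fold Change) on AFFX minus that on ABI, with limma adjusted p-values. EIF1 differed by 1.63 (adjusted p = 6.62e-05), with the AFFX set higher and the ABI probe lower in treated cells. EIF2B1 differed by 1.58 (adjusted p = 0.000189), on the dimmer of its 2 ABI probes, and EIF3M by 0.96 (adjusted p = 0.00112), on a dim AFFX set. EIF4B differed by 0.70 (adjusted p = 0.0106), EIF3F by 0.54 (adjusted p = 0.0298) and EIF2B4, an eIF2B subunit gene, by 0.52 (adjusted p = 0.0168). EIF3B differed by -2.21 (adjusted p = 8.05e-05) and EIF1AD by -1.64 (adjusted p = 4.24e-05). EIF3C, whose AFFX set was dim, differed by -0.82 (adjusted p = 0.00215), and EIF5A2 by -0.66 (adjusted p = 0.0287). Of these 10, EIF1, EIF1AD, EIF2B4 and EIF3C also differed by the brightest probe. Groups of 3 arrays were too small for a search for arrays far from the others.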

How the results depend on the processing

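EIF1B, EIF4ENIF1 and EIF5 were called lower on both platforms under every alternative run. The counts of members called lower on AFFX (6 genes, 14 probe sets), called lower on ABI (7 genes, 7 probes) and called higher on AFFX (4 genes, 5 sets) moved with the scaling, the probe choice and the fold limit. Centring on the ribosomal protein genes gave 22 lower sets and 1 higher gene and set on AFFX, 15 lower genes and 17 lower probes on ABI, and 7 genes lower on both platforms. It moved the median of all genes to -0.13 on AFFX and -0.53 on ABI, and the share of higher calls among all genes to 1.12% on AFFX (15% as deposited) and 1.49% on ABI (29.9% as deposited). Since this shift is the same for all genes, the changed signs of EIF3B (-0.40), EIF3F (-0.54) and EIF4B (-0.61) on ABI and of the eIF3 median (-0.13 on AFFX, -0.22 on ABI) follow from it and say nothing of these genes relative to the others. Median centring gave 2 higher genes and 2 higher sets on AFFX, where 275 of all genes were higher. It gave 1 higher gene and probe on ABI, where 1312 of all genes were higher. Quantile normalization of ABI gave 3 higher genes and 3 higher probes (39.6% of all calls higher) and turned EIF3B to -0.16. The brightest probe gave 1 higher gene on AFFX, EIF4E2, which was none of the 4 called by the lowest-p probe. For the difference between platforms the brightest probe was an alternative chosen after seeing the data, and gave 4 members (10 by the lowest-p probe). The brightest probe also reversed EIF1 (-0.10), EIF3B (0.0154), EIF3M (-0.12) and EIF4B (-0.0544) on AFFX and EIF2B1 (0.38) on ABI. The mean of a gene's probes gave 0 higher genes on AFFX, where 206 of all genes were higher, with EIF1 at -0.16 and EIF3M at -0.10. Leaving out the dimmest 25% of probes put EIF3M at -0.12 on AFFX. Without a fold limit 18 genes and 32 sets were higher on AFFX, where 6546 of all 19777 genes were higher. On ABI 3 genes and 3 probes were then higher, where 1446 of all 17192 genes were higher. Members lower on both platforms then numbered 7, and 1 was higher on both. A limit of 2-fold gave 9 lower sets, 0 higher genes and 0 higher sets on AFFX, where 32 of all genes were higher and 1619 lower. With the replicate number as a block ABI had 4 lower genes and 4 lower probes, without EIF1 (limma adjusted p = 0.0859), EIF3J-DT (0.0836) and EIF4E (0.0625). Over all ABI genes 1499 were then lower, against 2546 without the block. AFFX kept 6 lower and 4 higher genes. Whether the numbers pair the arrays was not tested. Correlations of same-numbered deviations lay between 0.00403 and 0.327 on AFFX and between -0.00667 and 0.0717 on ABI. In each platform 2 of 3 pairs matched their own number best. Leaving out 1 array gave 6 to 7 lower and 3 to 5 higher genes on AFFX (12 to 15 lower and 4 to 6 higher sets), 5 to 7 lower and 0 higher genes and probes on ABI, 3 to 5 genes lower and 0 higher on both, and EIF4B on ABI between -0.0664 and 0.103. The difference in hybridisation controls then ran between 0.38 and 0.64. No other cause of these differences was tested. Arrays of 1 RNA pool per condition limit every p-value to technical error, and dim probes, for which no detection call was used here, limit the single probe sets named above.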

Other observations

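Some probes that the annotation assigns to an initiation factor together with other genes were outside the counts above. Bright AFFX sets shared by EIF4A1, its readthrough transcript with SENP3 and small nucleolar RNAs had means of 13.1 and 12.96 in treated arrays, against 13.01 and 12.91 in control arrays. A dimmer set shared by EIF4A1 and small nucleolar RNAs had 5.53, 5.67 and 5.42 in treated arrays, against 7.13, 7.20 and 7.11 in control arrays (-1.61, limma adjusted p = 2.15e-07). For EIF4A2, a set shared with MIR1248 and small nucleolar RNAs had 5.28, 4.75 and 4.94 in treated arrays, against 7.38, 7.28 and 7.03 in control arrays (-2.24, limma adjusted p = 3.98e-07). A brighter EIF4A2 set with the same annotation had 11.25, 11.34 and 11.15 in treated arrays, against 11.64, 11.41 and 11.41 in control arrays, without a call. Both genes carry small nucleolar RNAs in their introns, and which transcript a shared set reports was not tested. The 3 AFFX sets shared by EIF3C and EIF3CL changed by 0.12 to 0.20 and were not called. An AFFX set shared by EIF5 and SNORA28 had 5.87, 5.73 and 5.92 in treated arrays, against 5.64, 5.10 and 5.35 in control arrays. Its change of 0.48 (limma adjusted p = 0.0126) passed the p limit but not the fold limit, opposite in sign to the single-gene EIF5 sets. For EIF4EBP3, shared with ANKHD1, 2 ABI probes were lower (-1.03 and -2.10), while the third changed by 0.53 and the AFFX set by -0.49, neither past 1.5-fold.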
